A study of Homo sapiens with 3 samples.

Results

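EEF1A1 and EEF1A2 are the genes of the 2 forms of eukaryotic translation elongation factor 1A, and their rows were read from a table of 32738 genes. These 2 of 32738 genes were chosen by the EEF1A2 level in cardiomyocytes (CMs), which was far higher at D14 than at D8, so that contrast is given below as a description. The table holds cells of chambered cardiac organoids (CCOs) grown from H7, a human embryonic stem cell line, and dissociated at D8, D14 or D21, each day being 1 droplet library. Captured 3′ ends were tagged by cell and by a unique molecular identifier (UMI), so that a UMI stands for 1 captured molecule.

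The 3 days shared a differentiation with the GSK inhibitor CHIR99021 and then the Wnt inhibitor IWP-2, after which the cells were aggregated in Matrigel. D8 and D14 CCOs had been kept in CGM, a medium with B27, thrombin, cardiotrophin, EGF, FGF, Wnt-3A and EDN1, and CCOs went on to a spinner flask with RPMI/B27 at D14. Day and library therefore cannot be told apart, and for D21 neither can the change of medium. All cells came from a single line, and with 1 library per day no difference between days could be tested.

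The elongation factor eEF1A binds GTP and carries each aminoacyl-tRNA to the ribosome, and the eEF1B complex then exchanges its GDP for new GTP. EEF1A1 is made in nearly all cells, whereas EEF1A2 is known as the form of adult heart muscle, skeletal muscle and neurons, and in muscle fibres and neurons it largely replaces EEF1A1 after birth. The mRNA of EEF1A1 is also known as one of the TOP mRNAs, which start with a C and a run of pyrimidines, as do the mRNAs of most ribosomal proteins, and which are translated under the control of mTOR.

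EEF1A1 lies on chromosome 6 and EEF1A2 on chromosome 20. In the GENCODE release 29 transcripts, the coding sequence was 1389 bases long for EEF1A1 and 1392 bases long for EEF1A2, and 78.0% of 1392 aligned positions were identical. The last 150 aligned positions, close to the 3′ end where this chemistry reads, are shown for EEF1A1-201 and EEF1A2-201, since they bear on whether a read can be given to the right gene. Capitals mark the bases at the 40 aligned positions that differ, and 3 of these are bases that EEF1A2 alone has.
EEF1A1: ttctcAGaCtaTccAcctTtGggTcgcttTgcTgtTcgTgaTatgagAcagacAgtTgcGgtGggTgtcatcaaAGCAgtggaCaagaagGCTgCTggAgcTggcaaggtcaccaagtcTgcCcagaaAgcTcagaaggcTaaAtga
EEF1A2: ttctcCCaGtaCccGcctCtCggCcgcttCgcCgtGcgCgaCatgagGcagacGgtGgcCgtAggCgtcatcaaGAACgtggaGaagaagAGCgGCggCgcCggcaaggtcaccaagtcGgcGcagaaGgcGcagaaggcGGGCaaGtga
The longest run of bases that the whole transcripts had in common was 20, and in their 3′ UTRs it was 8. None of the 401 stretches of 100 bases in the last 500 bases of EEF1A2 occurred in a transcript of another gene. For EEF1A1, 106 of 401 such stretches (26.4%) also occurred in transcripts of 3 pseudogenes, EEF1A1P5, EEF1A1P6 and EEF1A1P9, and RefSeq names 50 pseudogenes of EEF1A1. The EEF1A1 level is therefore uncertain by the molecules that counting left out or gave to those copies.

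After filtering on genes per cell and mitochondrial UMIs, 2657 D8 cells, 3585 D14 cells and 1946 D21 cells were kept, with a median of 12282 to 15316 UMIs per cell. They were clustered without EEF1A1, EEF1A2 and the translation genes listed below. Clusters were called CM-like from ACTC1, PLN, HSPB7, MYL4, TNNC1, CSRP3, SMPX and MYOM1, and in clusters 5, 2 and 4 all 8 exceeded the remaining cells of their day by at least 2-fold, with 6 of 8 in the small cluster 17. CM-like cells numbered 482 at D8, 971 at D14 and 542 at D21. Between 25 and 59 barcodes occurred in 2 libraries of a pair. Of the barcodes, 2657 of 3563 were kept at D8, 3585 of 4615 at D14 and only 1946 of 9149 at D21. At D21 the filter left out 1982 barcodes with over 2000 genes for their mitochondrial share. Another 5221 had 2000 genes or fewer, so the D21 values below describe a small part of that library.

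In CM-like cells the D8 level of EEF1A2 was 9.60 CPM (counts per 1000000 summed UMIs), the D14 level 304 CPM and the D21 level 259 CPM. The 95% Poisson intervals of these levels, 7.55 to 12.03, 294 to 313 and 248 to 271 CPM, do not overlap, and like all intervals given here they cover counting error only. The D8 value rests on 75 UMIs, against 3968 at D14. D14 was higher than D8 by 4.98 on the log2 scale (95% interval 4.65 to 5.33), or 31.7-fold, which is the difference the gene was chosen for. D21 lay 0.23 below D14 on the log2 scale, with a ratio of −0.23 (−0.31 to −0.15). That small difference depended on the scaling. Relative to the total, TMM shifted all genes by 0.21 and median-of-ratios by 0.26 between these days, and the ratio became −0.02 and 0.03.

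The same cells held 6319 CPM of EEF1A1 at D8, followed by 4349 CPM on D14 and 3553 CPM on D21, with intervals no wider than 6263 to 6375 CPM. The log2 ratio was −0.54 (−0.56 to −0.52) from D8 to D14 and −0.29 (−0.31 to −0.27) from D14 to D21, and the latter became −0.08 under TMM and −0.03 under median-of-ratios scaling. EEF1A1 thus had its highest CM level at D8 and EEF1A2 its lowest.

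EEF1A2 mRNA did not replace EEF1A1 mRNA at any of the 3 days. Its share of the UMIs of both genes in CM-like cells was 0.152% on D8 (0.119% to 0.190%), 6.53% on D14 (6.33% to 6.73%) and 6.80% on D21 (6.51% to 7.10%). In 0 of 482, 0 of 971 and 0 of 542 CM-like cells did EEF1A2 reach the UMI count of EEF1A1. The highest share in a single cell was 29.03% at D14 and 42.9% at D21. The word switch, used for this pair in muscle, therefore goes beyond these data, in which a second form was added at a low level to a form that stayed the main one.

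Single CM-like cells were compared after each was thinned to 4000 UMIs. A UMI of EEF1A2 was then found in 3.53% of D8 CM-like cells (Clopper-Pearson 95% interval 2.07% to 5.59%). The D14 share was 65.3% (62.2% to 68.3%), and the D21 share was 59.4% (55.1% to 63.6%). No CM-like cell of D8 held 2 or more UMIs after thinning, against 34.0% at D14 and 24.0% at D21. Without thinning, 14.1%, 90.3% and 87.3% of cells had a UMI. The lowest thinned share of any cluster at D14 was 9.43% (3.13% to 20.7%) in the endothelial-like cluster 14, where the median depth was 11280 UMIs against 12329 in the CM-like cluster 2. At D21 the fibroblast-like cluster 3 stood at 5.33% (3.90% to 7.09%), with 12691 UMIs against 12967 in the CM-like cluster 4.

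**Figure D1:**
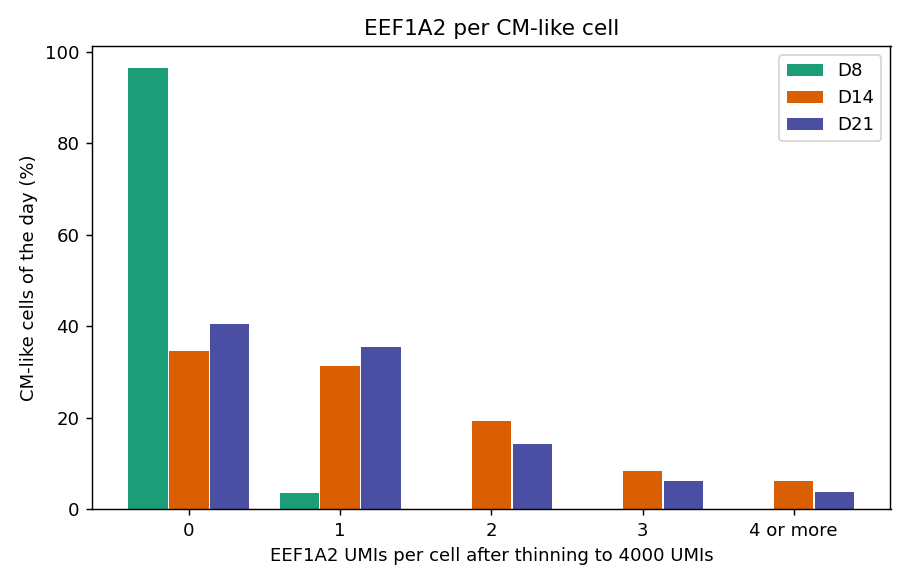
Percentage of CM-like cells of each day (y axis) by the number of EEF1A2 UMIs they held after thinning to 4000 UMIs (x axis), for 482, 971 and 542 cells. Of D8 cells 96.5% had none, while D14 and D21 cells spread over 0 to 4 or more with no separate group of high cells.

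Across CM-like cells before thinning, the median D8 cell had 0 EEF1A2 UMIs and the median D14 and D21 cells had 3. The medians of EEF1A1 were 91, 53 and 43 UMIs. In CPM per cell, the 5th and 95th percentiles of EEF1A2 at D14 were 0 and 731. After thinning, the variance of EEF1A1 UMIs over cells was 3.33, 3.19 and 2.42 times their mean on the successive days. For EEF1A2 it was 0.967, 1.29 and 1.34 times. Counting error alone would give a variance near the mean. The intervals leave the added spread between cells out, so those of EEF1A1 are too narrow.

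Within the CM-like cells of a day, cells were ordered by the sum of the 8 CM markers and cut into 4 equal bins. Bin 1 of D8 had a marker sum of 646 CPM. That is below the 915 CPM of all kept D8 cells and the 819 CPM of cluster 13, which was not called CM-like. EEF1A1 was lower in bin 4, which had the most marker UMIs, than in bin 1 on each day. It was 6809 CPM in bin 1 and 5559 CPM in bin 4 of D8, 5330 and 3477 CPM on D14, and 3988 and 3157 CPM on D21. EEF1A2 followed the markers on D21, where it was 199 CPM (177 to 222) in bin 1, 231 and 262 CPM in bins 2 and 3, and 324 CPM (300.1 to 349.1) in bin 4. On D14 it showed no such order, with 291, 323, 298 and 302 CPM, and on D8 it was 6.94, 9.94, 10.01 and 11.4 CPM with overlapping intervals. Depth moved with the bins, as the median was 10518.5 UMIs in bin 1 and 15051 in bin 4 of D21. The CM-like cells of D21 also join 2 unlike clusters. Cluster 17, with 50 of the 542 cells, had 136 CPM of EEF1A2, a marker sum of 25962 CPM and a median of 8172 UMIs. In cluster 4 these were 268 CPM, 38774 CPM and 12967 UMIs. The part of depth or of cluster 17 in the order was not tested.

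**Figure D2:**
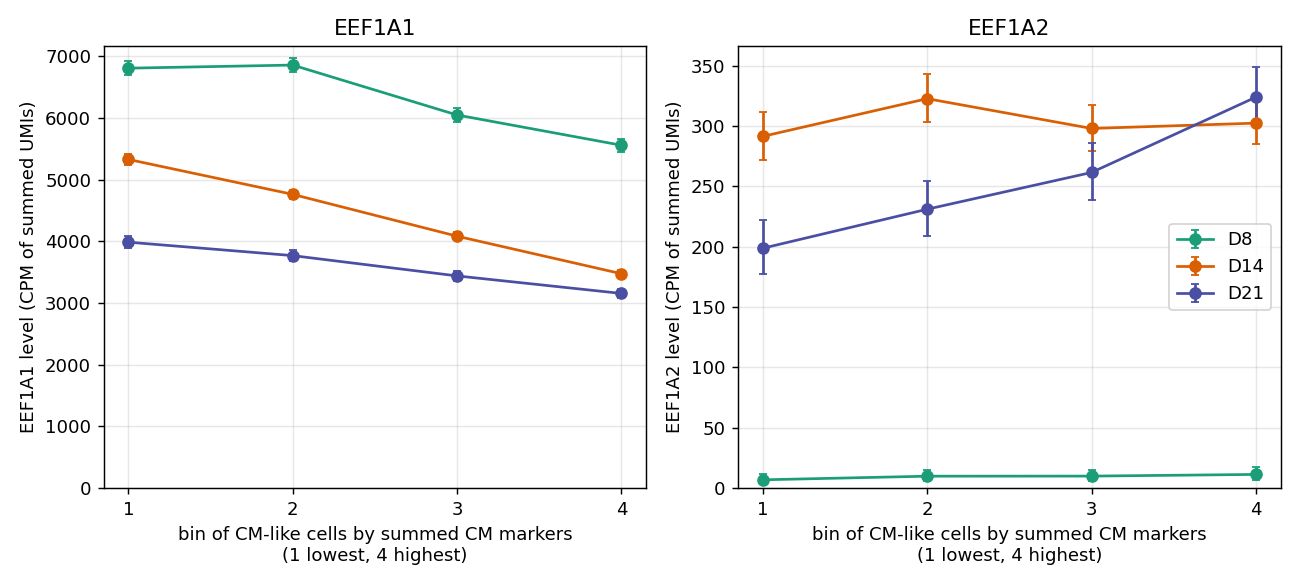
EEF1A1 (left) and EEF1A2 (right) in CPM of summed UMIs, by bin of CM-like cells ordered by summed CM markers, with 1 line per day and 95% Poisson intervals. EEF1A1 is lower in bin 4 than in bin 1 on every day, while EEF1A2 goes from 199 to 324 CPM on D21 and is level on D14.

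CM-like cells were also set beside all other cells of their library. The D14 level in CMs is part of what EEF1A2 was chosen on, so its D14 ratio and rank are a description. EEF1A2 was 304 CPM in CM-like cells of D14 and 94.6 CPM in the others, a log2 ratio of 1.68 and rank 389 of the 9427 genes at 10 CPM or more in either group, of which 9.91% were 2-fold or more higher in CM-like cells and 7.75% lower. On D21 it was 259 CPM against 27.5 CPM, a log2 ratio of 3.24 and rank 149 of 8963, where 12.8% of genes were higher and 15.6% lower. Those other D21 cells include clusters 7 and 16, which are high in TNNT2 and held 322 of their 648 EEF1A2 UMIs. Without these clusters, left out after seeing the data, the others were at 14.9 CPM (13.4 to 16.7) and the log2 ratio was 4.12 (3.95 to 4.29). EEF1A2 was under 10 CPM in both groups on D8 and was not tested there. EEF1A1 was lower in CM-like cells, with log2 ratios of −0.35 on D8, −0.80 on D14 and −1.22 on D21. On D8, 6.22% of genes were 2-fold or more higher in CM-like cells and 5.87% lower.

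Outside the CM-like cells, EEF1A2 was also higher at D14 than at D8. In D8 cells its order was the CM-like cluster 5 at 9.60 CPM, cluster 13 (led by NMB and NPPB) at 8.79 CPM, and 5 further clusters at 1.36 to 3.45 CPM. Clusters 5 and 13 overlapped in their intervals, and so did neighbours among the lower 5. EEF1A2 was therefore near its floor in all cell groups at D8, although the CM-like cells were at the upper end.

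At D14 the CM-like cluster 2 stood at 304 CPM, cluster 0 (led by MFAP4, CTNNA2 and HAND1) at 150 CPM (144 to 157), and the other 8 clusters at 24.9 to 76.0 CPM. Neighbours overlapped among these 8, with the endothelial-like cells lowest. All 10 D14 clusters were above all 7 D8 clusters.

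Of the clusters not called CM-like, 5 held at least 20 cells of both D8 and D14, so each was set side by side between the days. Cells of 1 cluster can still differ in state between days. In cluster 1 the CM gene MYL7 was 140 CPM at D8 and 1465 CPM at D14. Cluster 6, an unnamed cluster led by PRSS1, TTR and APOA2, had 2.55 CPM (1.49 to 4.09) of EEF1A2 at D8 and 76.0 CPM (68.4 to 84.3) at D14, a log2 ratio of 4.90 (4.20 to 5.69). Cluster 12, led by SFRP2, POU5F1 and SOX2, had 1.36 CPM (0.547 to 2.80) and 68.9 CPM (57.2 to 82.3), a log2 ratio of 5.66 (4.58 to 7.01). The intervals of these ratios held the 4.98 of CM-like cells, while their D14 levels were well below 304 CPM.

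The endothelial-like cluster 14 had 2.39 CPM at D8, from 2 UMIs, and 24.9 CPM at D14, from 16 UMIs, with a log2 ratio of 3.38 (1.29 to 6.55). The remaining clusters of this kind had few D14 cells. Cluster 1, led by TSHZ2 and EBF2, had a log2 ratio of 4.15 (3.46 to 4.81) with 25 D14 cells, and the dividing cluster 8 had 3.96 (2.91 to 5.00) with 23 D14 cells. The higher D14 level was thus seen in cells of several kinds and not in CM-like cells alone.

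At D21 the levels formed separate ranges. The CM-like clusters 4 and 17 stood at 268 and 136 CPM, the dividing cluster 7, whose 36 D21 cells held 4626 CPM of TNNT2, at 208 CPM (173 to 247), and cluster 16, led by MYL2 and also high in TNNT2, at 168 CPM (145 to 193). The clusters low in TNNT2 ranged from 11.05 CPM in cluster 9, led by SERPINA1 and AMBP, to 17.9 CPM in the fibroblast-like cluster 3. Cluster 15 (dividing) and cluster 14 (endothelial-like) lay between them at 11.9 and 12.3 CPM, and all 4 intervals overlapped with their neighbours. Fibroblast-like cells had 50.9 CPM at D14 and 17.9 CPM at D21, a log2 ratio of −1.51 (−1.79 to −1.23), but 303 of the 306 D14 cells were in cluster 11 and all 825 D21 cells in cluster 3, so different clusters are compared. Dividing cluster 7 went the other way, from 69.9 to 208 CPM, a log2 ratio of 1.57 (1.28 to 1.85), and its TNNT2 level went from 363 to 4626 CPM.

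**Figure D3:**
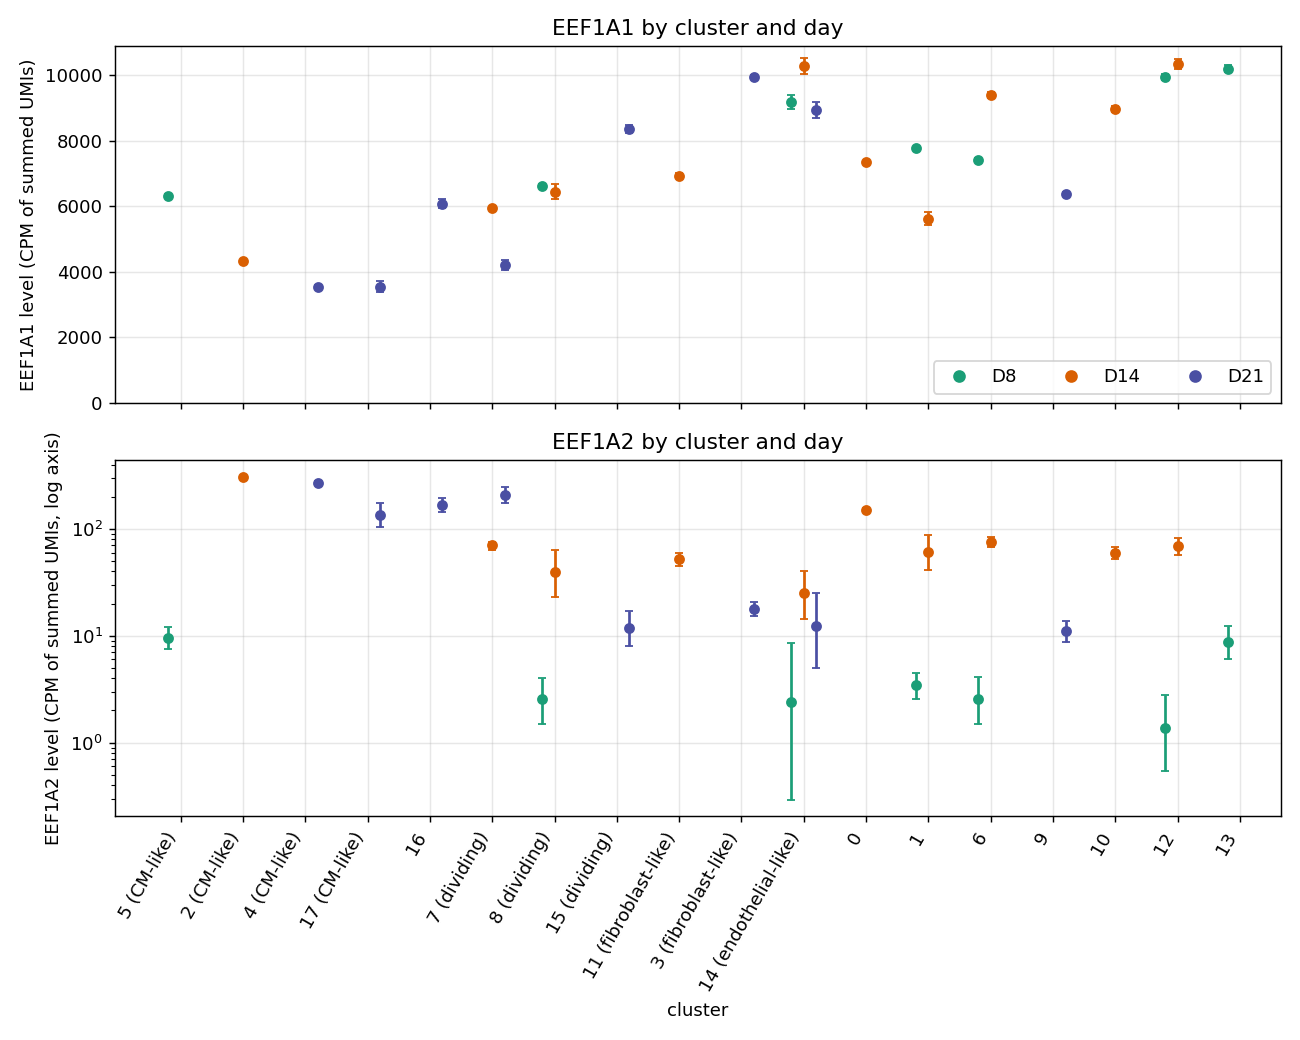
EEF1A1 (top, linear axis) and EEF1A2 (bottom, log axis) in CPM of summed UMIs for every cluster with at least 20 cells of a day, colored by day, with 95% Poisson intervals. For EEF1A2 all D14 points lie above all D8 points, and D21 points divide into 136 to 268 CPM and 11.05 to 17.9 CPM.

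Free RNA from CMs would bring EEF1A2 and TNNT2 into other droplets of the library in the ratio they have in CMs. That ratio was used to set the EEF1A2 level of each cluster beside the level its TNNT2 would bring. At D14, CM-like cells of cluster 2 had 9.55 EEF1A2 UMIs per 100 TNNT2 UMIs, and the 9 other clusters had 19.3 to 111. In cluster 6 the level that went with 68.5 CPM of TNNT2 was 6.56 CPM, and the measured level was 76.0 CPM, 11.6 times as high. In cluster 0 it was 22.5 CPM against a measured 150 CPM. The D14 level in each of these 9 clusters was 2.01 to 11.6 times that set by the TNNT2 ratio. The size depended on the CM gene used. MYH6 and MYL7 in place of TNNT2 gave 6.07 and 6.79 CPM for cluster 6. In cluster 8, however, MYL7 gave 38.3 CPM beside a measured 39.5 CPM (23.0 to 63.2), in cluster 1 it gave 43.5 CPM beside 61.1 CPM (41.5 to 86.7), and in cluster 7 it gave 52.2 CPM beside 69.9 CPM (64.1 to 76.2), so that the measured interval held the MYL7 level in clusters 8 and 1 and lay above it in cluster 7.

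The D8 levels, though low, were also above that ratio. CM-like cells of D8 had 0.545 EEF1A2 UMIs per 100 TNNT2 UMIs, and the 6 other clusters had 1.62 to 11.1, or 2.98 to 20.4 times the level set by TNNT2. The highest of these, in cluster 14, rests on 2 UMIs.

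At D21 the levels of the clusters low in TNNT2 lay close to that ratio. In the clusters 7 and 16, high in TNNT2, the levels were 208 CPM (173 to 247) and 168 CPM (145 to 193), beside 135 and 133 CPM set by that ratio. For cluster 7, MYH6 gave 153 CPM and MYL7 197 CPM, and for cluster 16 they gave 156 and 116 CPM. The measured interval held the MYL7 level in cluster 7 and the MYH6 level in cluster 16, and lay above the others. The TNNT2 ratio gave 14.5 CPM for the fibroblast-like cluster 3, where 17.9 CPM (15.5 to 20.5) was measured, and 9.08 CPM for cluster 9, where 11.05 CPM (8.80 to 13.7) was measured. For cluster 15 the ratio gave 11.5 CPM beside a measured 11.9 CPM. MYH6 and MYL7 gave 10.5 and 9.71 CPM for cluster 3, so that its measured level was above the level set by each of the 3 CM genes. In clusters 9, 14 and 15 the measured interval held the level set by each of the 3 CM genes. Expression of EEF1A2 in these clusters and free RNA of CMs cannot be told apart at these levels. What the higher level of cluster 3 comes from was not tested.

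**Figure D4:**
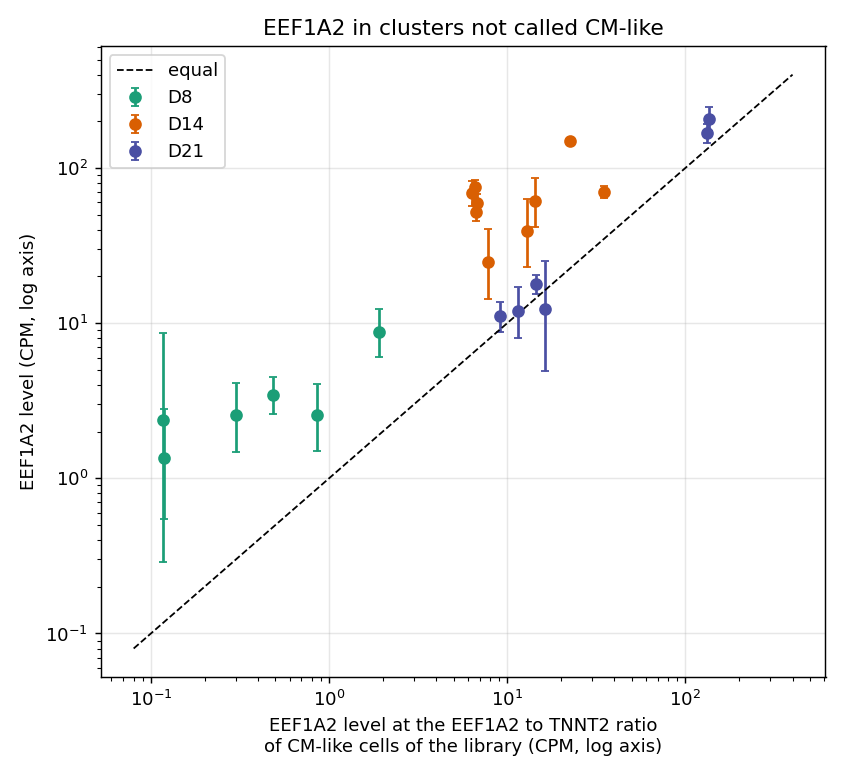
EEF1A2 level in CPM with 95% Poisson intervals (y axis, log) against the level that the TNNT2 of the cluster would bring at the ratio of CM-like cells of its library (x axis, log), for clusters not called CM-like, with a dashed line of equal values. D14 points lie at 2.01 to 11.6 times the line, D8 points lie above it at low levels, and D21 points lie at 0.751 to 1.54 times the line.

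Of 6818 genes at 10 CPM or more on either day in each of these pairs, 41 (0.601%) were 2-fold or more higher at D14 than at D8 in CM-like cells and in all 5 clusters. EEF1A2 is one of them, but it was chosen on the contrast in CMs and was under 10 CPM at D8 in all these cells, so its place there is a description. At 4-fold or more there were 8 genes, which were named after their values were seen. They were EEF1A2, CITED4, a transcriptional co-regulator, MYL3, a myosin light chain of the ventricle, PSMB8 and PSMB9, subunits of the immunoproteasome, TAP1, which carries peptides for antigen presentation, B3GALT6, an enzyme of glycosaminoglycan synthesis, and CDC42EP5, which binds CDC42. In cluster 6, CITED4 was 1.202 CPM at D8 and 38.0 CPM at D14, PSMB9 was 0.451 and 17.5 CPM, and MYL3 was 8.41 and 44.3 CPM. MYL3 reached 2294 CPM in D14 CM-like cells, so its level elsewhere was a small part of that, while EEF1A2 in cluster 6 was at 76.0 CPM beside 304 CPM. The immunoproteasome genes were not CM genes in this sense, with 33.5 CPM of PSMB9 in D14 CM-like cells.

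PPDPF, a gene next to EEF1A2 on chromosome 20, did not share its pattern. It had 499, 529 and 368 CPM in CM-like cells of the successive days. CHRNA4, COL20A1, PTK6 and SRMS, which lie further off, held at most 3 UMIs in CM-like cells on any day.

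EEF1A1 was low in CMs on every day. At D8 the CM-like cluster 5 had the lowest level of the 7 clusters at 6319 CPM, and cluster 13 the highest at 10208 CPM. At D14 the CM-like cluster 2 was again lowest at 4338 CPM, below cluster 1 at 5620 CPM, while clusters 12 and 14 were highest at 10341 and 10289 CPM and overlapped. At D21 the CM-like clusters 4 and 17 overlapped at 3544 and 3540 CPM and were the lowest of 8, followed by the dividing cluster 7 at 4208 CPM. Other neighbours in these orders did not overlap, as the large counts made the intervals narrow. Fibroblast-like cells of D21 were highest at 9957 CPM.

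The direction of EEF1A1 between D8 and D14 was not the same in all cells. It was lower at D14 in CM-like cells and in cluster 1, with log2 ratios of −0.54 and −0.47. It was higher in cluster 6, from 7421 to 9396 CPM, with a log2 ratio of 0.34 (0.32 to 0.36), and in the endothelial-like cluster 14 with 0.16 (0.12 to 0.21). Cluster 12 had 0.06 (0.03 to 0.08), similar in size to the shifts of all genes by scaling in CM-like cells. These were −0.05 under TMM and −0.09 under median-of-ratios, so the direction in cluster 12 is not settled. In the dividing cluster 8 the interval of −0.04 (−0.10 to 0.02) held 0. Between D14 and D21 fibroblast-like cells were higher, from 6910 to 9957 CPM, a log2 ratio of 0.53 (0.51 to 0.55), again between cluster 11 and cluster 3.

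The CM-like cells of D21 that were left out for mitochondrial UMIs gave somewhat lower levels of both genes. In a clustering with a limit of 20%, CM-like cells under 10% had 275 CPM (262 to 289) of EEF1A2, and the 1201 cells from 10% to under 20% had 250 CPM (242 to 258). EEF1A1 was 3538 CPM (3491 to 3586) and 3050 CPM (3023 to 3078) in them. The intervals did not overlap for either gene. The share of EEF1A2 was 7.22% and 7.58%.

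The other genes of elongation were set beside EEF1A2 in CM-like cells. With 1 UMI added, EEF1A2 ranked 15 of 9047 genes from D8 to D14, so a step of its size was rare among all genes. Of the 23 elongation and release genes in the table, 18 reached 10 CPM in CM-like cells at D8 or D14, and 0 of 18 were 2-fold or more higher and 0 of 18 lower at D14. Over all 9047 genes, 10.6% were 2-fold or more higher and 2.7% lower. The list lay below 0 for 14 genes and above 0 for 4, with a median log2 ratio of −0.27 against 0.04 for all genes. A list of 18 genes is too short to set counts of 0 apart from those shares. The counts and the rank come from the contrast that chose EEF1A2.

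EEF1B2 and EEF1D, subunits of the exchange complex that reloads eEF1A with GTP, were 811 and 637 CPM at D8. They were 472 and 398 CPM at D14, with log2 ratios of −0.78 and −0.68, and 631 and 549 CPM at D21. EEF1G, the third subunit, was counted at only 7.93, 4.59 and 3.14 CPM, far below its partners in the same complex, so its counts are uncertain and it was not tested. EEF2, which moves the ribosome along the mRNA, was 1002, 772 and 727 CPM. GSPT1, the release factor eRF3a, was 91.1, 113 and 112 CPM, and its partner ETF1 was 43.8, 42.5 and 49.9 CPM. EIF5A2, the second form of the hypusine-bearing factor EIF5A, was 6.27, 10.1 and 14.1 CPM and had the highest log2 ratio from D8 to D14 of the 18 tested genes, at 0.67.

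The lysine methyltransferases that act on eEF1A stayed low. METTL13 was 12.4, 10.4 and 12.4 CPM, METTL10 was 13.6, 8.96 and 12.03 CPM, and N6AMT2 was 18.0, 14.8 and 8.75 CPM. METTL21B was at 3.84 CPM or less and EEF2K, the kinase that inhibits EEF2, at 9.95 CPM or less, so neither was tested.

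From D14 to D21, 17 elongation genes were tested and 0 were past 2-fold in either direction, while 4.98% of all 9097 genes were 2-fold or more higher and 14.6% lower. The median log2 ratio was 0.23 against −0.16 for all genes. In the clusters shared by D8 and D14, 17 to 20 elongation genes were tested, and 0 of 18 in cluster 6 were past 2-fold either way, where 5.88% of all genes were higher and 3.68% lower. In cluster 12, 0 of 18 were higher and 2 lower, DPH3 and EEF1E1, beside 9.35% and 8.68% of all genes. Cluster 14 had 0 of 17 higher and 1 lower (EIF5A2), beside 6.84% and 8.84%, cluster 8 had 0 of 19 higher and 1 lower (N6AMT2), beside 10.3% and 5.44%, and cluster 1 had 2 of 20 higher (EEFSEC and EIF5A2) and 0 lower, beside 15.3% and 4.1%. With 1 UMI added, the log2 ratio of EEF1A2 was 4.82 in cluster 6 and 5.48 in cluster 12.

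From D8 to D14, EEF1A1 moved with the ribosomal proteins in CM-like cells. All 79 cytosolic ribosomal protein genes were below 0 from D8 to D14 in CM-like cells. Their median log2 ratio was −0.56, near the −0.54 of EEF1A1, against 0.04 for all genes. Of the 79 genes, 3 were 2-fold or more lower, beside 2.7% of all genes, and RPS6, a protein of the small subunit, was one of them with 3017 CPM at D8 and 1439 CPM at D14. Summed, they made up 249827, 171701 and 161329 CPM on the successive days. From D14 to D21, 54 of 79 were below 0 and 25 above, with a median of −0.08 against −0.16 for all genes. EEF1A1 was at −0.29 there, further below 0 than that median.

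Of 39 initiation genes, 38 were tested from D8 to D14 and 3 were 2-fold or more lower, namely EIF4A1, the helicase of the cap-binding complex, and the poly(A)-binding proteins PABPC1 and PABPC4. EIF4A1 was 783 CPM at D8 and 377 CPM at D14, and PABPC1 was 554 and 277 CPM. None of 38 was 2-fold or more higher. Over all genes tested in this contrast 2.7% were lower and 10.6% higher. The mitochondrial elongation factors gave 0 of 6 past 2-fold in either direction, beside the same shares, with TUFM, the mitochondrial counterpart of eEF1A, at 196, 179 and 222 CPM.

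**Figure D5:**
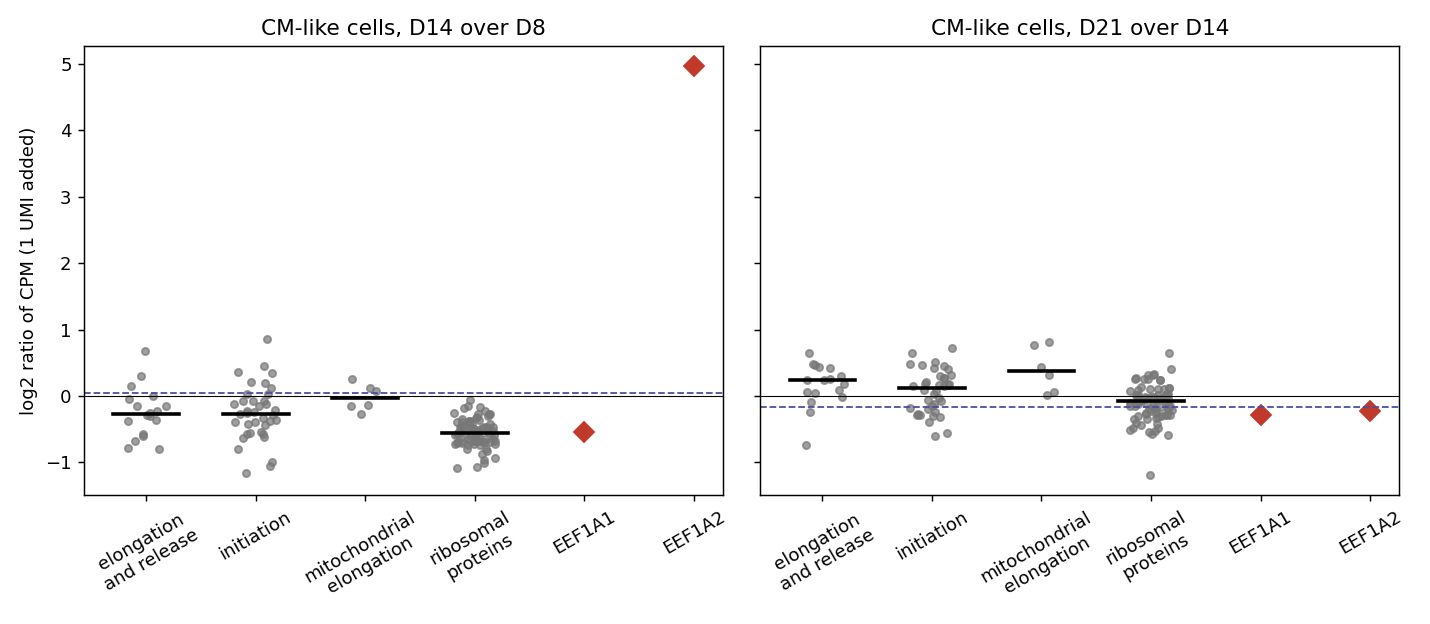
Log2 ratio of CPM with 1 UMI added (y axis) in CM-like cells, D14 over D8 (left) and D21 over D14 (right), for the tested genes of each list (grey points, black bar for the median) and for EEF1A1 and EEF1A2 (red), with the median of all genes as a dashed line. EEF1A2 stands at 4.97 on the left, where the 18 elongation genes lie between −0.80 and 0.67.

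Across 20 profiles of clusters by day with at least 50 cells, the level of EEF1A1 went with the summed ribosomal protein genes at r = 0.90, and with EEF1A2 at r = −0.56. These profiles share 3 libraries and are a description only. The genes most like EEF1A1 in log level among 5233 compared were RPS4X (r = 0.93), RPL27A, RPL28, RPL15 and RPL13. By Spearman's rho 2 of these 5, RPL15 and RPL27A, stayed among the 5 and RPS4X did not. RPS4X was 4860 CPM in CM-like cells of D8 and 5706 to 7734 CPM in the other clusters. At D14 it was 3513 CPM against 5267 to 7212 CPM, and at D21 3429 CPM against 4397 to 6733 CPM, so it was lowest in CMs each day, as was EEF1A1.

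Since the level of EEF1A1 went with that of ribosomal protein genes across these profiles, the bases around their annotated starts are shown. They are from the RefSeq table of GRCh38.p14, 15 before and 15 from the start, on the strand of the gene. Capitals mark a run that begins with C within 5 bases of the start and holds at least 4 more C or T, searched on the sense strand only.
EEF1A1: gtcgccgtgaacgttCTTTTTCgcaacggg
RPL27A: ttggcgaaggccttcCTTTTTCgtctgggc
RPL28: tcgcccctcgccttcCTCTTTCCgtctcag
RPS4X: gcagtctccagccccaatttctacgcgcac
These lie at chr6:73521018-73521047 (minus strand), chr11:8682777-8682806 (plus), chr19:55385917-55385946 (plus) and chrX:72277234-72277263 (minus). Such a run was found for 58 of 78 ribosomal protein genes in the table (74.4%) and for 7408 of all 35116 promoters (21.1%). The annotated start of RPS4X had none within that distance. EEF1A2 had no entry.

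The genes most like EEF1A2 over the same 20 profiles were CITED4 (r = 0.96), INHA (r = 0.90), which encodes the inhibin alpha subunit, ANKRD9, MXRA7, ODAM, RHOQ, SPPL3 and RXRG, a retinoid X receptor. CITED4 in CM-like cells was 4.09, 242 and 288 CPM on the successive days. In the other clusters it was 0.517 to 2.72 CPM at D8, 20.2 to 102 CPM at D14 and 13.5 to 182 CPM at D21. CITED4 thus had, like EEF1A2, a high level in CMs and a raised level in every cluster at D14. INHA was 1.79, 51.7 and 23.8 CPM in CM-like cells and was lower at D21 than at D14.

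Other genes of translation with a second form were set beside the EEF1A pair in CM-like cells. The share of RPL3L, a muscle form of the ribosomal protein RPL3, was at most 0.00966% and rested on 0 to 4 UMIs, too few to compare the days. RPL22L1 made up 8.46%, 16.5% and 17.5% of its pair with RPL22 over the 3 days, EIF5A2 2.17%, 5.04% and 5.90% of its pair with EIF5A, and EIF4A2 40.7%, 49.0% and 49.2% of its pair with EIF4A1. The shares of these forms differed more between D8 and D14 than between D14 and D21. A share moves with either gene of a pair, and EIF4A2 itself was lower at D14, from 537 to 362 CPM, while EIF4A1 was lower still. The pairs had no common course, as RPS27L made up 19.1%, 19.8% and 26.2% of its pair with RPS27, and RPL7L1 3.33%, 6.08% and 3.52% of its pair with RPL7.

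The pairs of metabolic genes with a muscle or heart form differed among themselves in timing. The share of COX6A2, the muscle form of a cytochrome c oxidase subunit, was 4.68%, 28.5% and 32.3%, with the larger step from D8 to D14 as for EEF1A2. For the glycolytic enzymes the larger step in the share was from D14 to D21. ENO3 made up 8.04%, 10.6% and 55.2% of its pair with ENO1, PGAM2 1.28%, 7.74% and 56.7% of its pair with PGAM1, and LDHB, the heart form of lactate dehydrogenase, 34.6%, 29.1% and 76.7%. In these pairs the general form was much lower on D21, as ENO1 went from 4385 to 350 CPM while ENO3 went from 517 to 432 CPM, PGAM1 from 888 to 326 CPM while PGAM2 went from 74.5 to 426 CPM, and LDHA from 2371 to 394 CPM while LDHB went from 973 to 1301 CPM. CKM, the muscle creatine kinase, had 8.00%, 39.9% and 83.2% of its pair with CKB. SLC25A4, the ADP/ATP carrier of heart and muscle, had 38.1%, 53.4% and 63.2%. EEF1A2, at 6.80% of its pair on D21, had a lower share of its pair than each of these forms, while COX7A1, another muscle form, reached only 0.153%.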

How the data were processed

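The libraries hold H7 CCOs of D8, D14 or D21 (1 each). The authors deposited UMI counts per gene and barcode (Chromium Single Cell 3′ kit) before their filter on cells; the submitters' processing notes name Cell Ranger, Seurat 3.2.1 and the build hg19. Column names gave the day. Coding and promoter sequences are from GENCODE release 29 and RefSeq, both on GRCh38.

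Kept cells had over 2000 but less than 7500 genes, and a mitochondrial share under 10%. Counts were log-normalized to 10000, and 2000 variable genes without the members and listed genes, 20 principal components and a resolution of 0.8 were used to cluster all days in Seurat 5.3.0 (R 4.3.3). Naming a cluster asked for 3 or more class markers at 2-fold or more over the rest of its day, 2 markers more than for any other class, and no leading genes against it. PECAM1 and ACTN3, both listed markers, were not used. Scrublet in scanpy 1.11.5 called 1, 1 and 7 cells as doublets, too few to have worked, and doublets were kept.

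Summed counts per cluster or class and day gave CPM with exact Poisson intervals, shares with Clopper-Pearson intervals and log2 ratios with intervals from the split of the counts (scipy 1.17.1, numpy 2.4.6, pandas 2.3.3, Python 3.11.15), all at 95%. Tested genes had 10 CPM or more in either group, with 1 UMI added. No p-value was computed. The counting of 3′ ends needs no scaling by length. TMM factors came from edgeR 4.0.16. Likeness was Pearson's r of log2 CPM with 10 CPM added, among genes reaching 50 CPM, and 8 genes are named for EEF1A2 and 5 for EEF1A1. On counts simulated with counting error alone from 8797 genes of D14, 95.5% of the intervals held the true ratio. That checks the computation and not how the intervals hold for real cells, which also differ from each other. Genes named are the members, the listed genes and those most like the members. Members, lists and tests were chosen with earlier results of these data known. The alternatives tried are given in the closing section. Some genes of the lists and of the neighbourhood of EEF1A2 are not reported here.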

Additional observations from a re-analysis of the deposited data

Results flagged for a closer look

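EEF1A1 went in opposite directions from D8 to D14 in different cells. Its log2 ratio was −0.54 in CM-like cells, 0.34 in cluster 6, 0.057 in cluster 12 and 0.16 in the endothelial-like cluster 14. The value of cluster 12 is similar in size to the shifts by scaling, so its direction is not settled. With 1 library per day the difference between these groups was not tested.

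EEF1A2 was also present in barcodes that no comparison between clusters used. D21 barcodes with over 2000 genes and at least 10% mitochondrial UMIs numbered 1982 and held 194 CPM of EEF1A2 (189 to 200), with 6122 CPM of TNNT2, against 82.3 CPM in all kept cells of D21. The 5221 D21 barcodes with 2000 genes or fewer held 90.4 CPM of EEF1A2 (84.3 to 97.0), with 4799 CPM of TNNT2. There EEF1A2 made up 2.36% of the UMIs of both genes, and the reason for that lower share was not tested.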

How the results depend on the processing

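EEF1A2 stayed higher at D14 than at D8 in CM-like cells under all alternatives run. Its log2 ratio moved by more than the counting interval to 5.38 with a limit of 1000 genes, 5.41 with 3000 variable genes and 5.40 without the top 5% of doublet scores. In these settings the D8 CM-like cells numbered 974, 944 and 900, against 482 in the main setting. Their EEF1A2 level was 7.29, 7.06 and 7.31 CPM and their EEF1A1 level 6833, 6851 and 6805 CPM. Which D8 cells were called CM-like thus depended on the setting. From D14 to D21 the log2 ratio of EEF1A2 was −0.40 with a gate on TNNT2 at 1000 CPM, −0.86 in all cells, −0.017 under TMM and −0.023 with the lowest cluster subtracted, and turned to 0.029 under median-of-ratios scaling.

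EEF1A1 stayed lower at D14 than at D8, at −0.49 and −0.51 with mitochondrial limits of 5% and 20%, −0.68 over 1000 genes, −0.34 and −0.58 at resolutions of 0.4 and 1.2, −0.45 with no genes held out, −0.59 with the gate, −0.20 in all cells, −0.59 under TMM, −0.63 under median-of-ratios, −0.65 without mitochondrial and ribosomal genes in the total and −0.50 as a mean per cell. From D14 to D21 the same alternatives gave −0.47 (20% limit), −0.22 (1000 genes), −0.48 and −0.25 (resolutions), −0.40 (3000 variable genes), −0.39 (none held out), −0.37 (doublet scores), −0.0089 (gate), −0.079 (TMM), −0.033 (median-of-ratios), −0.26 (without those genes) and −0.32 (mean per cell), and turned to 0.086 in all cells. The cause of these moves was not tested.

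The share of CM-like cells with an EEF1A2 UMI was 14.1%, 90.3% and 87.3% without thinning, and 0%, 34.0% and 24.0% for 2 or more UMIs. With no filter on low genes, 1 elongation gene was 2-fold lower at D21 than at D14, METTL21B. A mitochondrial limit of 5% left 1 CM-like cell at D21 and gave no value, and subtraction gave none for EEF1A1, since the CM clusters were lowest. Of the 8 genes most like EEF1A2, 4 or 5 remained under the other measures, and of the 5 most like EEF1A1, 2 remained by Spearman and 5 under the others. No paired analysis was possible because each day has 1 library. Counting error and 1 library per day limit all values.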
